A study of Rattus norvegicus with 10 samples.

Results

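The glutamate transporter and glutamate-glutamine cycle genes were followed in the rat prefrontal cortex (PFC) 24 h after the start of footshock (FS) stress. The list holds 9 genes, written by name: the vesicular transporters Slc17a6, Slc17a7 and Slc17a8, the plasma membrane transporters Slc1a1, Slc1a2 and Slc1a3, the enzymes Glul and Glud1, and the glutamine transporter Slc38a1. A gene entered the comparison through array probe sets that carry its symbol and no other, and this held for 8 of the 9, among 16941 genes tested in all. Glul, the glutamine synthetase of astrocytes, had no such probe set in the annotation used and is not analysed here. Only Slc1a1 had 2 such probe sets, and the brighter one, by its mean over the 10 arrays, stands for the gene.

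Adult male Sprague–Dawley rats of 2 groups were compared, 5 in each, with 1 whole-transcript array per rat from the dissected whole PFC. The FS rats received inescapable shocks of 0.8 mA within a 40 min session, 20 min of which was actual shock, went back to their home cages, and were killed 24 h after the session began. The controls stayed undisturbed in their home cages. No genotype or drug differed between the groups, and the replicate numbers name individual rats.

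Glutamate released at a cortical synapse is loaded beforehand into vesicles by the vesicular glutamate transporters. It is cleared from outside the cell by sodium-coupled transporters, mostly on astrocytes. Within astrocytes glutamine synthetase turns it into glutamine, which is released, taken up by neurons and made into glutamate again, while glutamate dehydrogenase moves part of it into the tricarboxylic acid cycle. These genes therefore act on the neuronal and the astrocytic side of one cycle.

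The values are log2 values from robust multi-array averaging (RMA), 1 per probe set and rat, and all differences are FS minus control on that scale. Array medians over the probe sets tested lay between 7.82 and 7.85 in FS rats and between 7.83 and 7.87 in controls, and the correlation between arrays was 0.994 to 0.997. Of the 18304 probe sets tested, those with 1 symbol whose mean exceeded 4, limma called 0% at an adjusted p of 0.05, and 0 of the 8 genes of the cycle. At an unadjusted p under 0.05 there were 9.84% of all probe sets, and 2 of the 8 genes, Slc1a3 on the lower and Slc1a1 on the higher side. Groups that did not overlap were found in 1.94% of all probe sets and in 1 of the 8 genes, Slc1a3. The median difference was 0.019 over the 8 genes and 4.4e-04 over all probe sets, with 5 genes on the positive and 3 on the negative side. The counts of 1 and 2 genes are too small to be set against these shares. In bulk tissue, fewer cells of a type and less RNA per cell cannot be told apart.

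**Figure D1:**
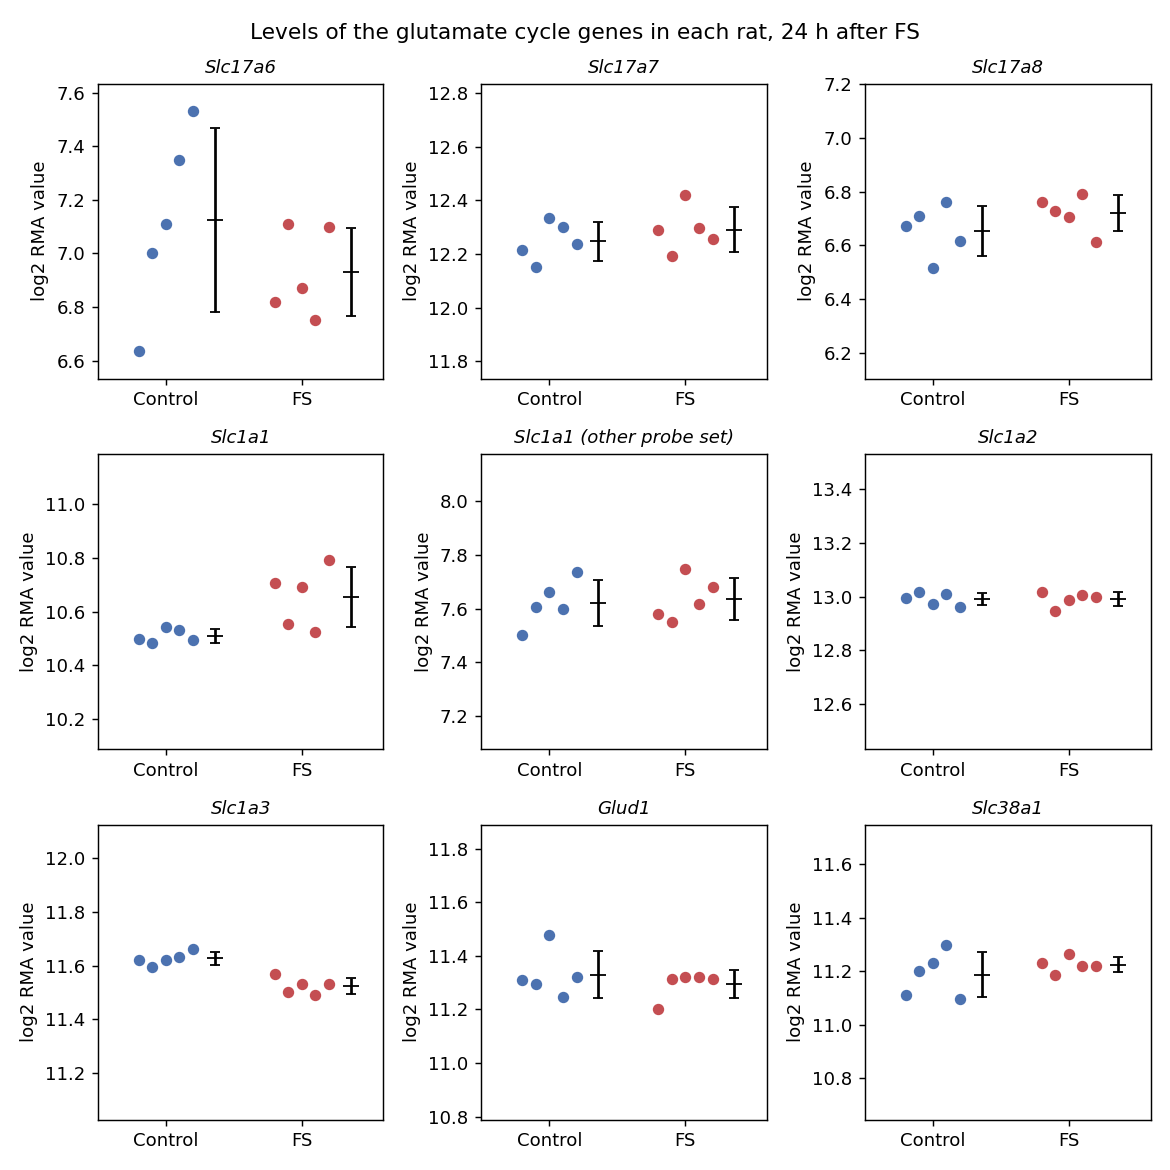
Levels of the 8 genes, and of the other Slc1a1 probe set, in each of the 10 rats (y axis: log2 RMA value, with the same height of 1.1 in every panel; points: rats, in the order of their labels, which is no order in time; bars: mean ± SD, n = 5). The FS rats lie below every control for Slc1a3, mostly above them for Slc1a1, and among them for the other genes.

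Slc1a3 encodes GLAST, the glutamate/aspartate transporter of astrocytes. Its level was 11.62, 11.60, 11.62, 11.63 and 11.66 in control replicates 1 to 5 and 11.57, 11.50, 11.53, 11.49 and 11.53 in FS replicates 1 to 5. The highest FS rat thus lay below the lowest control. The means were 11.63 ± 0.023 (SD, n = 5) in controls and 11.52 ± 0.030 (SD, n = 5) in FS rats. The difference of -0.10 had a standard error of 0.032 and a 95% interval of -0.17 to -0.032, which corresponds to a change of -6.86% in linear level, with bounds of -11.3% and -2.21%. The interval is that of a single probe set, and over all probe sets the gene did not pass, with an adjusted p = 0.385 in limma (unadjusted p = 0.00786). An exact permutation test, which takes every split of the 10 rats into 5 and 5, gave p = 0.00794, two-sided, the smallest p that 5 rats against 5 allow. The lower direction without overlap was shared by 0.972% of all probe sets. The spread of Slc1a3 within the groups was small, at the 0.923 percentile of all probe sets tested.

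Slc1a2 encodes GLT1, the transporter that takes up most glutamate in the forebrain and that sits, like GLAST, mainly on astrocytes. Its level was 13.00, 13.02, 12.97, 13.01 and 12.96 in controls and 13.02, 12.95, 12.99, 13.01 and 13.00 in FS rats. The groups covered the same range. The difference was 0.00094, with a standard error of 0.032 and a 95% interval from -0.068 to 0.070, or -4.63% to 4.99% in linear level (adjusted p = 0.996 in limma). Its spread within the groups was at the 0.656 percentile of all probe sets, so that these 5 rats per group bound a difference of Slc1a2 closely. Whether the differences of Slc1a3 and Slc1a2 differ from each other was not tested.

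The bases before the start of these 2 astrocyte transporter genes are shown because the FS rats lay apart from controls for one and together with them for the other. They are the 250 bases ahead of the most upstream start listed for each gene, from RefSeq, build GRCr8, at chr2:59557809-59558058 on the minus strand for Slc1a3 and at chr3:109459859-109460108 on the plus strand for Slc1a2, written in the direction of transcription with each CG dinucleotide in capitals.
Slc1a3: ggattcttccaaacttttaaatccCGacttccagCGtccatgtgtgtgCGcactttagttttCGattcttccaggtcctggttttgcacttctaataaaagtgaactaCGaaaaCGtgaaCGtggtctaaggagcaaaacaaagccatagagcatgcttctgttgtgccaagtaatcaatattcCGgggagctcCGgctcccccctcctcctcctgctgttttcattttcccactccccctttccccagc
Slc1a2: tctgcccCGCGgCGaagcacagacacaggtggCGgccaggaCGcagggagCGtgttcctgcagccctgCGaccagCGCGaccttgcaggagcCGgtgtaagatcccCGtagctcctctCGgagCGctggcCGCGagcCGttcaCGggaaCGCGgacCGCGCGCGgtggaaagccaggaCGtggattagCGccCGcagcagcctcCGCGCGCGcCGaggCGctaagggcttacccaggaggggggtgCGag
The Slc1a3 stretch holds 9 CG dinucleotides and the Slc1a2 stretch 33, against a median of 5 over the 33469 stretches of this length in the table. A stretch with fewer CG than that of Slc1a2 was found in 96.4% of them, and with fewer than that of Slc1a3 in 61.5%. On both strands, neither stretch holds the GC box GGGCGG (in 30.5% of all stretches), the CCAAT box CCAAT (34.0%), the TATA box TATAAA (12.9%), the cAMP response element TGACGTCA (1.59%) or AGAACA, one arm of the glucocorticoid response element (17.5%). These are matches of letters in 1 window and say nothing on binding. The table lists 8 of the 9 genes, without Slc1a1. A second listed start of Slc1a2 has 2 CG dinucleotides in its stretch and holds AGAACA, and 2 further starts of Slc1a3, whose stretches overlap the one shown, have 10 each.

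Slc1a1 encodes EAAT3 (also called EAAC1), the glutamate transporter of neurons, which also carries cysteine. Its level was 10.50, 10.48, 10.54, 10.53 and 10.49 in controls and 10.71, 10.56, 10.69, 10.52 and 10.79 in FS rats. The FS rats were higher than all controls apart from replicate 4, which lay within their range, and replicate 2 was only just above it. The means were 10.51 ± 0.026 (SD, n = 5) and 10.65 ± 0.11 (SD, n = 5), so the spread was wider among FS rats. The difference was 0.14, with a standard error of 0.051 and a 95% interval of 0.033 to 0.25, or 2.35% to 19.3% in linear level. It did not pass over all probe sets, with an adjusted p = 0.426 in limma (unadjusted p = 0.0149), and the exact permutation test gave p = 0.0238, two-sided. The higher direction at an unadjusted p under 0.05 was shared by 5.75% of all probe sets, and the lower one by 4.09%.

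The other probe set of Slc1a1 gave no such difference. It was at 7.50, 7.61, 7.66, 7.60 and 7.74 in controls and 7.58, 7.55, 7.75, 7.62 and 7.68 in FS rats. All these values are dim, below the array medians of 7.82 to 7.87 over the probe sets tested. The groups overlapped over nearly their whole range. The difference was 0.014, with a 95% interval of -0.098 to 0.13 (adjusted p = 0.949 in limma). With the mean of both probe sets in place of the brighter one, the difference of Slc1a1 was 0.079 (adjusted p = 0.578 in limma). This value follows from the 2 differences and is no further test. The value of 0.14 therefore rests on 1 of 2 probe sets, the brighter one. Whether so dim a probe set as the other could show this difference was not tested.

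**Figure D2:**
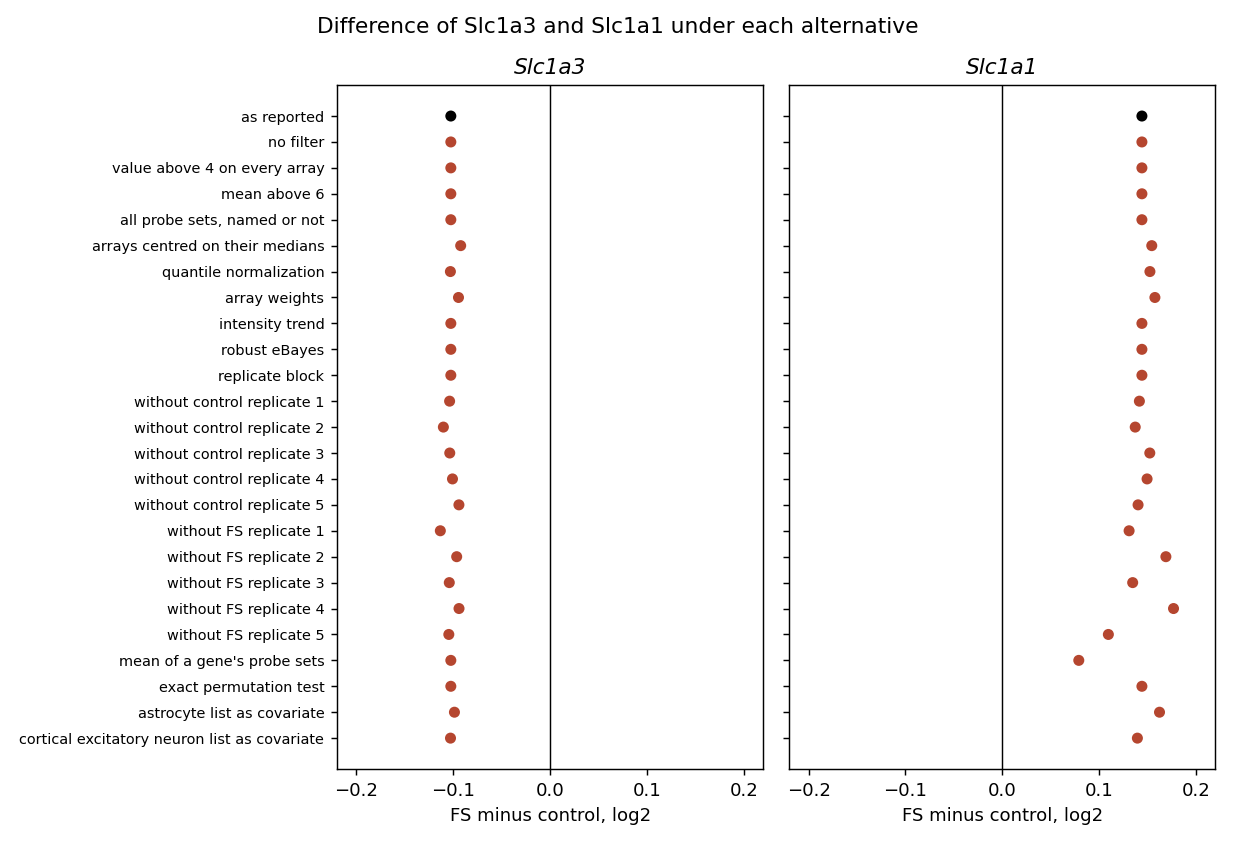
Difference of Slc1a3 and Slc1a1 (x axis: FS minus control, log2) as reported (black) and under each of 24 other settings (red, 1 per line). Slc1a3 stays between -0.11 and -0.092, whereas Slc1a1 ranges from 0.079, with the mean of both probe sets, to 0.18, without FS replicate 4.

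The direction of Slc1a3 and of Slc1a1 was the same in all 24 alternative settings, but in none of them did either gene pass at 0.05. Settings that changed only the filter, the variance prior or the test leave a difference as it is, so they say nothing on its direction. The same holds for replicate numbers as a block and, for Slc1a3 with its 1 probe set, for the mean of a gene's probe sets. Leaving out single rats could not turn the sign for Slc1a3, whose groups did not overlap. Over the settings, adjusted p-values, from limma or the exact permutation test, ran from 0.254 to 0.639 for Slc1a3 and from 0.287 to 0.593 for Slc1a1. With an intensity trend in the variance of limma, the unadjusted p of Slc1a3 was 8.6e-04 and its adjusted p 0.355.

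Markers of astrocytes were set beside Slc1a3. Of 17 genes written for astrocytes, 14 were tested, 5 with a positive and 9 with a negative difference, and a median of -0.030. In limma 0 passed after adjustment, while S100b and Slc6a11 were on the lower side with an unadjusted p under 0.05, as were 4.09% of all probe sets. Their values were S100b (-0.13, adjusted p = 0.401) and Slc6a11 (-0.10, adjusted p = 0.471), and they encode a calcium-binding protein and a GABA transporter. Averaged over its genes, each centred on its own mean, the list lay between -0.023 and 0.076 in controls and between -0.056 and 0.045 in FS rats. The groups overlapped (difference -0.019, exact permutation test, two-sided, p = 0.476). With the list's mean per rat as a covariate, chosen after the data were seen, the difference of Slc1a3 was -0.099 (adjusted p = 0.541 in limma). The list differed little between the groups and had an r of only 0.28 with Slc1a3, so this covariate moved the difference of Slc1a3 little. The same covariate moved the difference of Slc17a6 from -0.19 to -0.12. The part of astrocytes in these differences was not tested. With the mean of cortical excitatory neuron markers as a covariate, likewise chosen after the data were seen, the difference of Slc1a1 was 0.14 (adjusted p = 0.329 in limma). The mean of these markers differed by only 0.0079 between the groups. No such fit was made with the GABAergic interneuron markers, the list with the highest r with Slc1a1 (0.82).

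Slc17a7 encodes VGLUT1, the vesicular transporter of most cortical excitatory neurons. It was at 12.22, 12.15, 12.34, 12.30 and 12.24 in controls and at 12.29, 12.19, 12.42, 12.30 and 12.26 in FS rats. The groups overlapped, with FS replicate 3 highest and control replicate 2 lowest. The difference was 0.043, with a standard error of 0.049 and a 95% interval of -0.064 to 0.15 (adjusted p = 0.799 in limma). It was 0.011 without FS replicate 3 and 0.019 without control replicate 2, and 0.068 without FS replicate 2 and 0.065 without control replicate 3.

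Slc17a6 encodes VGLUT2, known from thalamic and other subcortical neurons that project to the cortex. It varied most from rat to rat, with a spread at the 98.6 percentile of all probe sets. It was at 6.63, 7.0, 7.11, 7.35 and 7.53 in controls and at 6.82, 7.11, 6.87, 6.75 and 7.10 in FS rats. The controls held both the lowest and the highest rat, and all rats lay below the array medians over the probe sets tested. The means were 7.13 ± 0.34 (SD, n = 5) and 6.93 ± 0.16 (SD, n = 5). The difference of -0.19 was the largest in size among the 8 genes but had the widest 95% interval, from -0.50 to 0.11, or -29.3% to 8.03% in linear level (standard error 0.14, adjusted p = 0.657 in limma). It depended on single controls, being -0.32 without control replicate 1 and -0.093 without control replicate 5 (adjusted p = 0.546 and 0.778 in limma), and -0.091 with array weights (adjusted p = 0.816). With the astrocyte list as a covariate, chosen after the data were seen, the difference was -0.12 (adjusted p = 0.840 in limma).

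Slc17a8 encodes VGLUT3, found in scattered interneurons and in some neurons that use other transmitters. It was at 6.67, 6.71, 6.52, 6.76 and 6.61 in controls and at 6.76, 6.73, 6.70, 6.79 and 6.61 in FS rats. All these values are dim, below the array medians of 7.82 to 7.87 over the probe sets tested. The groups overlapped. The difference was 0.065, with a standard error of 0.051 and a 95% interval of -0.046 to 0.18 (adjusted p = 0.690 in limma). It was 0.022 after quantile normalization and 0.030 without control replicate 3, the lowest rat (adjusted p = 0.935 and 0.854 in limma).

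Glud1 encodes the mitochondrial glutamate dehydrogenase. It was at 11.31, 11.30, 11.48, 11.25 and 11.32 in controls and at 11.20, 11.31, 11.32, 11.32 and 11.31 in FS rats. Control replicate 3 stood highest, FS replicate 1 and control replicate 4 were lowest, and the other rats lay between 11.30 and 11.32. The difference was -0.036, with a 95% interval of -0.14 to 0.065 (adjusted p = 0.828 in limma), and 5.0e-04 without control replicate 3.

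Slc38a1 encodes SNAT1, a transporter that brings glutamine into neurons. It was at 11.11, 11.20, 11.23, 11.30 and 11.10 in controls and at 11.23, 11.19, 11.26, 11.22 and 11.22 in FS rats. The FS rats lay within the range of controls, whose SD was 0.084 against 0.027 in FS rats. The difference was 0.036, with a 95% interval of -0.058 to 0.13, or -3.92% to 9.47% in linear level (adjusted p = 0.811 in limma). It was 0.018, 0.064 and 0.013 without control replicates 1, 4 and 5.

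**Figure D3:**
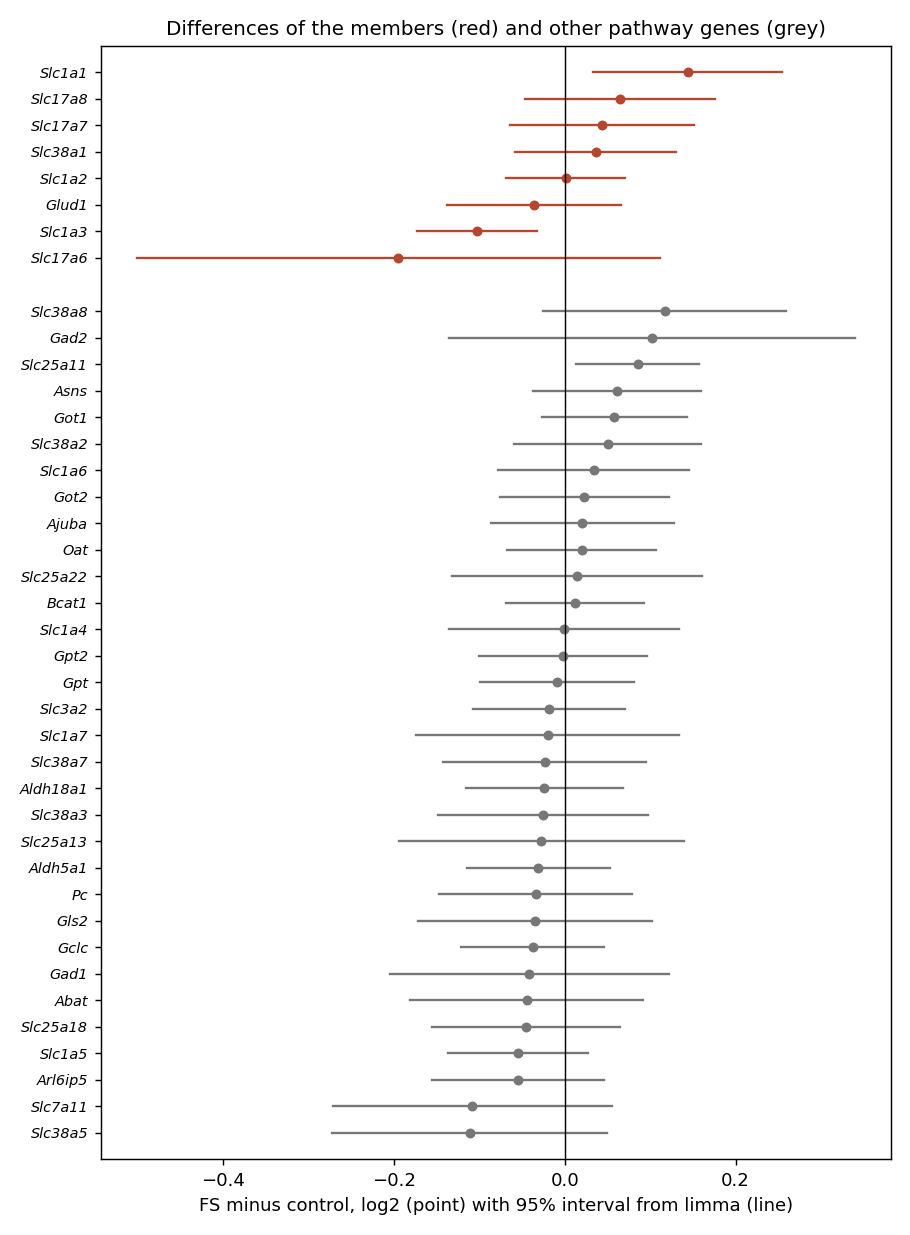
Differences of the 8 genes (red) and of the 32 other genes of the pathway (grey). The x axis gives FS minus control on the log2 scale, points are limma's estimates and lines their 95% intervals, not adjusted for the number of genes. The intervals of Slc1a1, Slc1a3 and Slc25a11 leave out 0, and that of Slc17a6 is the widest.

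The rest of the pathway was followed through 35 further genes, of which 32 were tested. Of these, 12 had a positive and 20 a negative difference, with a median of -0.019 and a range from -0.11 to 0.12. In limma 0 passed in either direction over all probe sets, and at an unadjusted p under 0.05 there was 1 higher and 0 lower, against 9.84% of all probe sets in either direction.

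Among the mitochondrial carriers, Slc25a11, which exchanges oxoglutarate for malate, had groups that did not overlap. It was at 11.17, 11.19, 11.20, 11.18 and 11.13 in controls and 11.29, 11.25, 11.27, 11.20 and 11.27 in FS rats. All FS rats lay above all controls, the closest pair being FS replicate 4 and control replicate 3. The difference was 0.085 (standard error 0.033, adjusted p = 0.449 in limma), and the higher direction without overlap was shared by 0.972% of all probe sets. The other carriers tested, Slc25a22, Slc25a18 and Slc25a13, lay between -0.045 and 0.014.

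Among the glutamine transporters, Slc38a8 had a difference of 0.12 and Slc38a5 one of -0.11 (adjusted p = 0.568 and 0.628 in limma). Both were dim, below the array medians in every rat. The differences of Slc38a2, Slc38a3 and Slc38a7 were 0.050, -0.025 and -0.024. Among the other plasma membrane carriers, Slc7a11, the cystine/glutamate exchanger, had a difference of -0.11 and Slc1a5, a carrier of neutral amino acids, one of -0.054 (both adjusted p = 0.642 in limma). In Slc7a11, FS replicates 3 and 4 were lowest, at 10.51 and 10.52, while the other FS rats lay at 10.70 to 10.91 and the controls at 10.69 to 10.89. The partner of Slc7a11, Slc3a2, was at -0.018. Of the 15 enzymes tested, 6 had a positive and 9 a negative difference, all between -0.045 and 0.10. Got1, the cytosolic aspartate aminotransferase, was at 0.058 (adjusted p = 0.632 in limma). Gad1 and Gad2, which make GABA from glutamate, were at -0.041 and 0.10 (adjusted p = 0.879 and 0.783 in limma). Of the proteins that bind glutamate transporters, Arl6ip5, which binds EAAT3 in the rat, was at -0.055 and Ajuba, which binds GLT1, at 0.021.

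How the 8 genes varied together was examined across all 10 rats after each group's mean had been subtracted. Over the 28 pairs, Pearson's r ran from -0.75 to 0.62 with a median of 0.036, and 0 pairs passed an adjusted p of 0.05 in an exact permutation test within the groups. The pair Slc17a8 and Glud1 had r = -0.75 (exact permutation p = 0.0280, adjusted p = 0.634) and Spearman's rho = -0.58 (exact permutation p = 0.0977, adjusted p = 0.506). In control replicate 3, Slc17a8 was the lowest of all rats and Glud1 the highest. Without the 2 rats farthest from the median of Slc17a8, r was -0.51. The pair Slc1a1 and Slc1a3 had r = 0.62 (exact permutation p = 0.119, adjusted p = 0.634) and rho = 0.75 (exact permutation p = 0.0409, adjusted p = 0.506), and r was 0.62 without the 2 rats farthest from the median of Slc1a1. The sign of this r is positive, while the differences of these genes between the groups had opposite signs.

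**Figure D4:**
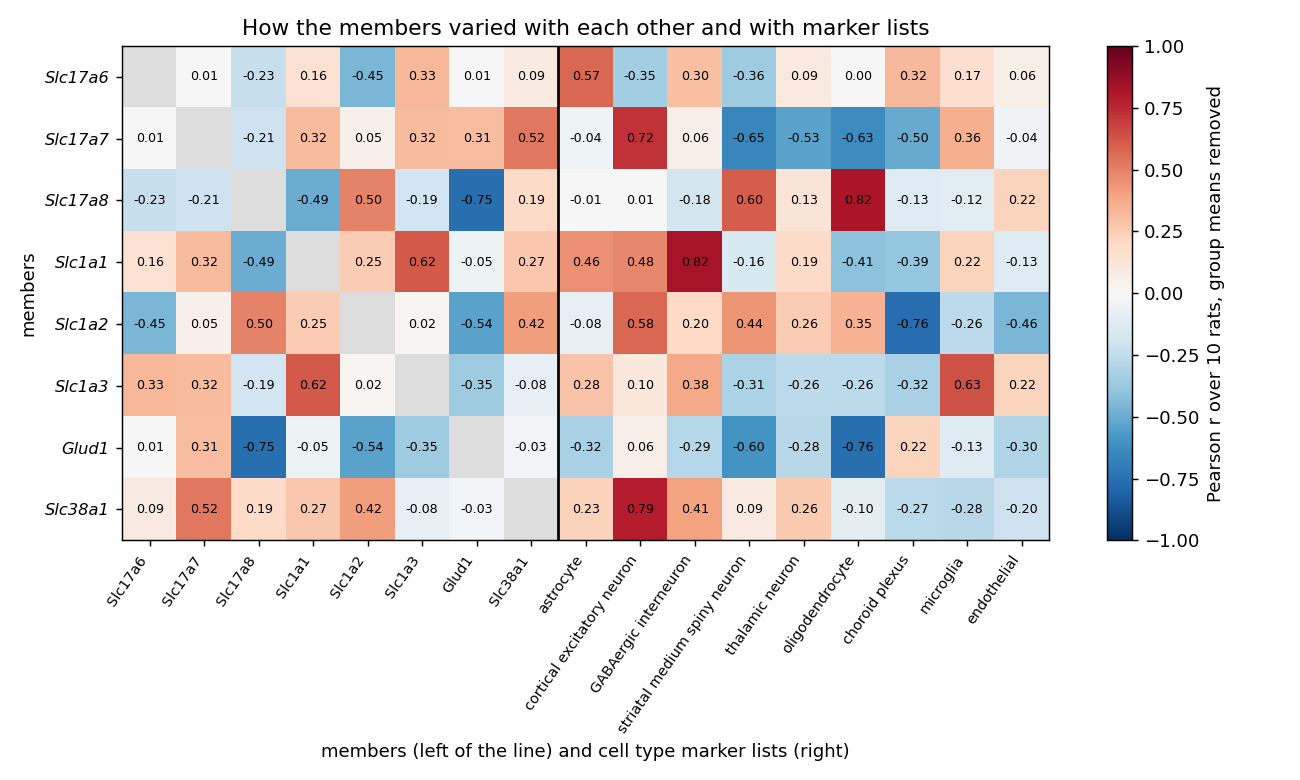
Pearson's r of the 8 genes with each other (left of the line) and with the mean of 9 cell type marker lists per rat (right), over 10 rats after each group's mean was subtracted (colour and number: r; grey: a gene with itself). None of the 28 and 72 relations passed after adjustment, and the highest r was 0.82.

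The same was done with the means of 9 lists of cell type markers per rat, which gives 72 relations. Of these, 0 passed after adjustment, 7 had an unadjusted p under 0.05, where chance gives about 1 in 20, and the smallest adjusted p was 0.178. The 72 relations share rats, genes and lists and are not independent. The mean of the cortical excitatory neuron markers, 11 of 12 tested, went with Slc38a1 (r = 0.79, exact permutation p = 0.00514; rho = 0.87, exact permutation p = 0.00465; adjusted p = 0.178 and 0.183) and with Slc17a7 (r = 0.72, exact permutation p = 0.0342; rho = 0.78, exact permutation p = 0.0147; adjusted p = 0.411 and 0.300). Without the 2 rats farthest from the gene's median, r was 0.71 and 0.55. These markers lay between -0.11 and 0.058 in controls and between -0.10 and 0.077 in FS rats. Slc1a1 went with the GABAergic interneuron markers (13 of 14 tested; r = 0.82, exact permutation p = 0.00951; rho = 0.72, exact permutation p = 0.0399; adjusted p = 0.178 and 0.319). That list was highest in FS replicate 5 (0.062) and lowest in FS replicate 4 (-0.091), the FS rats with the highest and the lowest Slc1a1, and without the 2 farthest rats r was 0.40. The part of these markers in the difference of Slc1a1 was not tested.

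Slc17a7 had a negative r with the oligodendrocyte markers (r = -0.63, exact permutation p = 0.0469; rho = -0.37, exact permutation p = 0.294; adjusted p = 0.458 and 0.729), and -0.12 without the 2 farthest rats. Slc17a8 went with the oligodendrocyte markers (13 of 15 tested; r = 0.82, exact permutation p = 0.0103; rho = 0.85, exact permutation p = 0.00507; adjusted p = 0.178 and 0.183), with r = 0.75 without the 2 farthest rats. That list lay between -0.37 and 0.20 in controls, with control replicate 3 lowest, and between -0.17 and 0.079 in FS rats. Slc1a3 went with the 9 microglia markers (r = 0.63, exact permutation p = 0.00958; rho = 0.68, exact permutation p = 0.0173; adjusted p = 0.178 and 0.300; r = 0.77 without the 2 farthest rats), which lay between -0.17 and 0.087 in controls and between -0.031 and 0.014 in FS rats. In control replicate 2, these markers were lowest of all rats and Slc1a3 lowest of the controls. That rat was not among the 2 left out, which were chosen by Slc1a3 alone. With the astrocyte markers, r was 0.28 for Slc1a3 (exact permutation p = 0.449, adjusted p = 0.852) and -0.082 for Slc1a2 (exact permutation p = 0.831, adjusted p = 0.958), with rho of 0.48 and -0.22 (exact permutation p = 0.195 and 0.558, adjusted p = 0.729 and 0.836). Without the 2 rats farthest from the gene's median, these r were 0.40 and 0.13. For Slc17a6, r was 0.57 with the astrocyte markers (exact permutation p = 0.109, adjusted p = 0.497), and 0.92 without the 2 farthest rats. Its rho with them was 0.71 (exact permutation p = 0.0360, adjusted p = 0.319). With the thalamic neuron markers, r of Slc17a6 was 0.095 (exact permutation p = 0.830, adjusted p = 0.958).

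Markers of striatal medium spiny neurons, 13 of 15 tested, varied widely between rats, from -0.50 to 0.50 in controls and from -0.54 to 0.23 in FS rats. All 11 choroid plexus markers had a positive difference, with a median of 0.47. Of them, 1 was higher without overlap of the groups, as were 0.972% of all probe sets. The 11 markers were read in the same rats and are not independent of each other. Their mean lay between -0.36 and -0.11 in controls, was 1.78 in FS replicate 2 and lay between -0.24 and 0.10 in the other FS rats (difference 0.51, exact permutation test, two-sided, p = 0.103). In limma 0 of them passed after adjustment. Slc1a2 had r = -0.76 with the choroid plexus markers (exact permutation p = 0.0124; rho = -0.60, exact permutation p = 0.0233; adjusted p = 0.178 and 0.300), and -0.53 without the 2 farthest rats. Without FS replicate 2, the differences were -0.096 for Slc1a3, 0.17 for Slc1a1 and 0.012 for Slc1a2. Thalamic neuron markers lay between -0.063 and 0.12 in controls and between -0.059 and 0.050 in FS rats, and endothelial markers between -0.012 and 0.067 and between -0.089 and 0.042.

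For each of the 8 genes, the 2 genes whose values followed it most closely across the 10 rats, each group's mean subtracted, are given as a description. They are the highest r among the 16941 genes tested. With 10 rats, the highest of so many can be large without any link between the genes, and no test was made. Those of the vesicular transporters were Ttc7b (r = 0.98) and Stx5 (r = 0.97) for Slc17a7, Ccr6 (r = 0.97) and Ada (r = 0.95) for Slc17a6, and Sox8 (r = 0.98) and Dync1li2 (r = 0.92) for Slc17a8. Those of the plasma membrane transporters were Nolc1 (r = 0.96) and Pafah2 (r = 0.95) for Slc1a1, Zfp821 (r = 0.95) and Adgrb3 (r = 0.94) for Slc1a2, and Or10ag2 (r = 0.95) and Sorcs2 (r = 0.94) for Slc1a3. For Glud1 they were Il2ra (r = 0.95) and Lyzl1 (r = 0.93), and for Slc38a1 Grina (r = 0.96) and Abca5 (r = 0.96). None of the 8 genes was among the 2 closest of another.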

How the data were processed

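PFC RNA of 10 rats, 5 FS and 5 control, was hybridised to Affymetrix Rat Gene 1.0 ST arrays. Per the authors, oligo 1.58.0 was used with RMA, and the deposited log2 values, 1 per probe set and array, were used as they stand. The platform annotation gives 1 symbol to 18644 of 29214 probe sets, several to 962 and none to 9608. All 9 probe sets of the genes followed were found by gene identifier in RefSeq.

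FS minus control was fitted in limma 3.58.1 (R 4.3.3) over 18304 probe sets that have 1 symbol and a mean over 4, with Benjamini–Hochberg adjustment over all of them. Relations were tested over 14400 orderings within groups. Functions were tested on simulated data. Alternatives changed the filter, the probe sets, the scaling, weights, variance prior, covariates and rats. The replicate numbers correlated over 0.1 in 2 of 5 pairs and were not taken to pair rats. The number of arrays limits the precision. The genes and lists were chosen with earlier results of these data known. The genes named are the 8 of the cycle, pathway genes with the 3 lowest p-values each way, further pathway genes and markers chosen after their values were seen, and the 2 genes most alike to each.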

Additional observations from a re-analysis of the deposited data

Results flagged for a closer look

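Of 48 groups of 5 rats examined for a value far from the others, 2 held one, and chance gives about 1 in 20. Glud1 was at 11.20 in FS replicate 1, while the other FS rats lay together between 11.31 and 11.32. The mean of the choroid plexus markers, centred per gene, was 1.78 in FS replicate 2 and between -0.24 and 0.10 in the other FS rats. The cause was not tested for either.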

How the results depend on the processing

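Across the 24 alternatives, 0 of the 8 genes passed an adjusted p of 0.05 in any. Slc17a6, Slc17a7, Slc17a8, Slc1a1, Slc1a3 and Slc38a1 kept their direction in all 24, part of which could not change it. The filter, the variance prior, the test and the replicate numbers as a block leave a difference as it is. So does the mean of a gene's probe sets, except for Slc1a1, the only gene with 2. Slc1a2 changed sign in 7, with values that stayed near 0: -6.9e-05 with the astrocyte list and -7.8e-04 with the cortical excitatory neuron list as a covariate, both chosen after seeing the data, and -0.0061 to 0.012 with single rats left out. With single rats left out, Glud1 ranged from -0.057 to 5.0e-04. The count of probe sets past the threshold ranged from 0 to 1, the latter without control replicate 2. The count of probe sets with an unadjusted p under 0.05 was 1802 of 18304 (9.84%), or 2841 of 27977 (10.2%) when those with several or no symbols were tested too. Of the 72 relations with marker lists, 0 to 2 passed with single rats left out, the latter without control replicate 1. With the replicate block, 0 genes passed and 1803 probe sets had an unadjusted p under 0.05. The same-numbered rats' deviations correlated over 0.1 in 2 of 5 pairs. The number of arrays limits these comparisons.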
